A study of Mus musculus with 24 samples.

Results

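The ER membrane complex (EMC) has 10 known subunits in mouse, Emc1, Emc2, Emc3, Emc4, Mmgt1 (also called EMC5), Emc6, Emc7, Emc8, Emc9 and Emc10, and all 10 were found by gene symbol among the 12746 genes listed in the count tables. The complex was selected on the basis of earlier results of these same libraries, whereas its 10 members were taken by name as the known subunits and none was dropped for its values. The counts of subunits given below are therefore descriptions and support nothing. All 10 passed the filter on low counts in every comparison of mRNA, of footprints and of their ratio.

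The cells were Neuro-2a (N2a), a mouse neuroblastoma line that grows in culture. The ctrl cells had been transfected with the empty Cas9 vector and the KO cells with vectors for 3 guides against Eif4e3, which encodes a cap-binding protein of the eIF4E family, followed in both by puromycin selection. No clone is described, so KO is a selected population. Both genotypes received 250 nM Torin1, an inhibitor of the kinase mTOR, or its vehicle DMSO for 2 h, which gave 4 conditions (ctrl DMSO, ctrl Torin1, KO DMSO and KO Torin1), each with 3 replicates from separate passages. RNA-seq was analysed in 12 libraries and ribosome profiling (Ribo-seq, the sequencing of mRNA fragments protected by ribosomes) in 11. For Ribo-seq, replicate 2 of ctrl DMSO was not analysed here, which left that condition with n = 2.

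The EMC sits in the membrane of the endoplasmic reticulum (ER), where it inserts tail-anchored proteins and the first membrane-spanning segments of many multipass proteins, receptors and channels among them. Emc3, a relative of the Oxa1 insertases, forms the membrane core with Emc6, Mmgt1 and Emc4. Emc1, the largest subunit, Emc7 and Emc10 carry large domains on the lumenal side and are themselves made with an N-terminal signal sequence, while Emc2 is a cytosolic scaffold that holds either Emc8 or its paralogue Emc9.

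In Torin1-treated cells the subunits parted ways at the level of ribosome footprints. Emc1 footprints were 3.14-fold lower with Torin1 in ctrl cells and 7.39-fold lower in KO cells, while its mRNA did not pass the test in either. Emc10 footprints were 2.11-fold lower in ctrl and 3.08-fold lower in KO, and Emc7 footprints were 1.57-fold and 1.62-fold lower. Emc2, the cytosolic scaffold, had footprint log2 fold changes of -0.02 (SE 0.15) in ctrl and -0.04 (SE 0.11) in KO. Emc8, also cytosolic, had -0.50 (SE 0.17, adjusted p = 0.059) in ctrl and -0.66 (SE 0.13, adjusted p = 1.3e-04) in KO by edgeR. Its KO value was close to that of Emc7 (-0.69, SE 0.12).

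The starts of the genes are shown because the first bases of an mRNA are where cap-binding proteins act. Each line gives 20 bases before and 15 bases from the annotated RefSeq start (GRCm38.p6), 5′ to 3′ on the strand of the gene, with the bases from the start onwards in capitals. The lumenal subunits are followed by Emc3 and Emc4 of the membrane core.
Emc1: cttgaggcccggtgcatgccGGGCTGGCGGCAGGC
Emc10, upstream start: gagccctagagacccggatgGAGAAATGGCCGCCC
Emc10, downstream start: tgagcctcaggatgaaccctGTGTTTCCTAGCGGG
Emc7: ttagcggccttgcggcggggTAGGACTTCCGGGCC
Emc3: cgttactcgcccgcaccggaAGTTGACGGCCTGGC
Emc4: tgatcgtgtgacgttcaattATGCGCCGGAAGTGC

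These windows lie at chr4:139352567-139352601 (plus strand) for Emc1, chr7:44496499-44496533 and chr7:44496404-44496438 (both minus) for Emc10, chr2:112455005-112455039 (plus) for Emc7, chr6:113531624-113531658 (minus) for Emc3 and chr2:112368013-112368047 (minus) for Emc4. RefSeq start windows were at hand for 7 of the 10 subunits, with 8 entries in all, and none for Emc2, Emc8 and Mmgt1. A start like that of the TOP mRNAs, which encode ribosomal proteins and respond to mTOR, was taken as a C at the first base followed by at least 4 bases that are C or T, read on the strand of the gene. It was found in 0 of the 8 entries and in 2.39% of the 11572 entries of genes tested. This says only that these letters are not at these annotated starts.

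The transcripts that the authors counted had unequal leaders (the 5′ untranslated part) in the GENCODE M21 annotation of the same build. Emc1 lies at chr4:139352610-139377236 on the plus strand with 23 exons, a coding sequence of 2982 bases and a leader of 10 bases, and only 1% of the 11344 tested transcripts with an annotated coding sequence had a leader as short. The RefSeq start shown above lies 23 bases upstream of the start of this transcript, so the length of the Emc1 leader depends on the annotation. The annotated span of Ubr4, on the same strand, overlaps that of Emc1 by 24627 bases. Coding bases shared with another tested transcript were found for Emc8 alone. Whether reads of Ubr4 transcripts entered the Emc1 counts was not tested. Emc2 (chr15:43477229-43527763, plus) had a leader of 57 bases and Emc7 (chr2:112454997-112472162, plus) of 71 bases. The leaders of Emc4 (chr2:112363011-112368027, minus), Emc8 (chr8:120653914-120668121, minus), Emc6 (chr11:73175519-73177037, minus), Emc3 (chr6:113514874-113531652, minus), Emc9 (chr14:55581522-55585302, minus) and Mmgt1 (chrX:56585512-56598069, minus) measured 123, 143, 147, 170, 193 and 206 bases, against a median of 172 over all those transcripts. The Emc10 transcript of the tables is not in this annotation and its leader and coding lengths were not used, while its gene spans chr7:44489937-44496529 on the minus strand.

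A longer leader went with a less negative Torin1 response across all transcripts, with a Spearman rho between leader length and footprint log2 fold change of 0.227 in ctrl (n = 10655) and 0.257 in KO (n = 10783). Among the 9 EMC subunits with a leader length rho was 0.55 in ctrl and 0.417 in KO, and without Emc1 it was 0.357 and 0.167 (n = 8). These are descriptions across genes, which share libraries and are not replicates.

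Eif4e3 itself was checked in each library. Its mRNA level ranged from 12.0 to 18.2 CPM (counts scaled to a common library total) in the 6 ctrl libraries and from 2.88 to 5.04 CPM in the 6 KO libraries, and its footprints from 11.6 to 22.05 CPM in ctrl and from 2.29 to 6.61 CPM in KO. The genotypes did not overlap in either measure (footprint log2 fold change of KO against ctrl -2.69 in DMSO, adjusted p = 0.0011, and -1.93 in Torin1, adjusted p = 6.2e-04, by edgeR), and reads remained in every KO library. CPM here and below use library totals after TMM scaling, so they are levels relative to the rest of the same library. Cell number, RNA per cell and a change in footprints shared by all transcripts cannot be seen in them. Of the 10 markers of sympathoadrenal neuroblastoma cells, 9 were in the shared mRNA table, with a summed level of 872 to 1024 CPM per library, whereas of the fibroblast markers only Pdgfra and Dcn (summed 1.26 to 2.71 CPM) and of the leukocyte markers only Cd68 (1.30 to 4.07 CPM) were listed. Single markers differed between the genotypes, with Dbh, the noradrenaline-synthesising enzyme, lower in KO in footprints (log2 fold change -1.10, adjusted p = 0.013, in DMSO and -1.57, adjusted p = 4.6e-07, in Torin1) and in Torin1 mRNA (-0.41, adjusted p = 0.042), and Gata2 mRNA higher in KO in Torin1 (0.24, adjusted p = 0.035). With Torin1 in KO, Gata3 and Isl1 mRNA were called lower and Gata2 mRNA higher. The part of these differences in the results below was not tested. Library totals were 17047795 to 28910907 counts for RNA-seq and 669010 to 5284909 for Ribo-seq, the lowest being ctrl DMSO replicate 3, in which single subunits had 3 (Emc6) to 207 (Emc1) footprints.

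**Figure D1:**
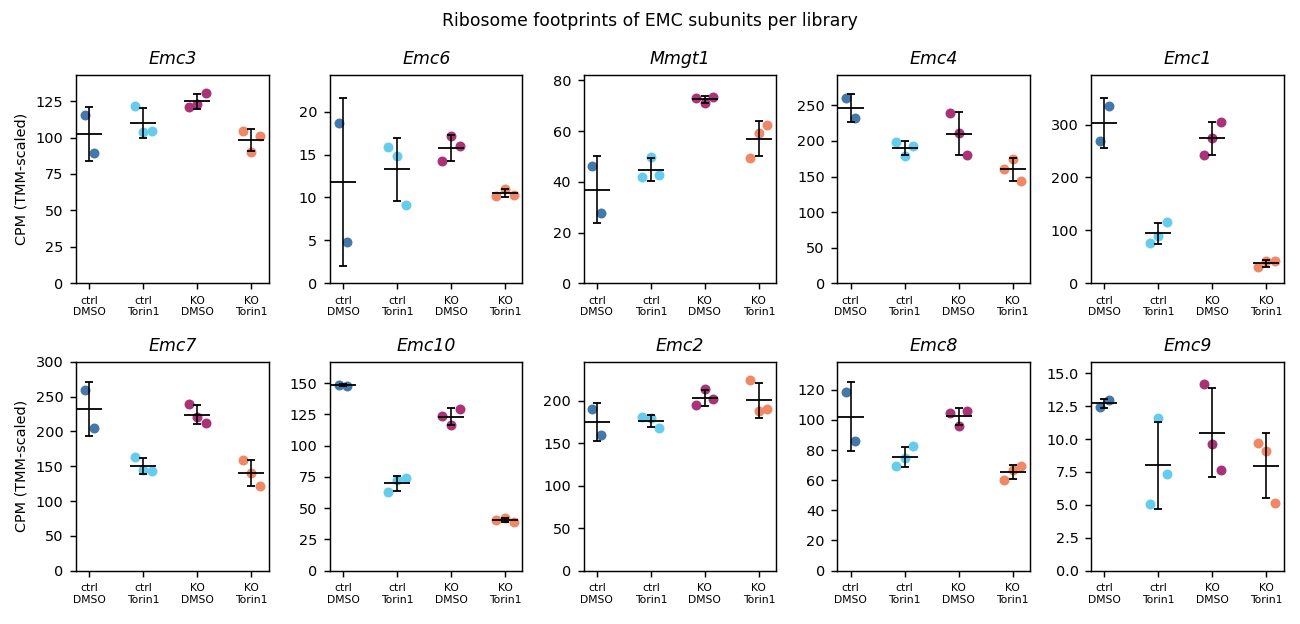
Footprint level of each EMC subunit in TMM-scaled CPM (vertical axis, from 0) in each Ribo-seq library (points) of the 4 conditions, with mean and SD (bars; n = 2 for ctrl DMSO, otherwise 3). Emc1 falls from 242.6 to 335.7 CPM in the DMSO libraries to 30.4 to 41.7 CPM in KO Torin1, whereas Emc2 stays between 159 and 224 CPM in all 11 libraries.

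Emc1 and Emc10, both lumenal, had the largest footprint differences with Torin1. Emc7, also lumenal, was at -0.69 in KO, close to the cytosolic Emc8 (-0.66) and to Emc6 of the membrane core (-0.62). In ctrl Emc7 was at -0.65, beside -0.59 for Emc9 and -0.50 for Emc8. Emc1 had 269.6 and 336 CPM of footprints in the ctrl DMSO libraries and 76.7, 90.2 and 116 CPM in ctrl Torin1. In KO cells it had 243, 274 and 305 CPM with DMSO and 30.4, 41.2 and 41.7 CPM with Torin1. Every Torin1 library lay below every DMSO library, and the KO Torin1 libraries lay below all of ctrl Torin1, while the DMSO libraries of the genotypes overlapped. The log2 fold change with Torin1 was -1.65 (SE 0.17, adjusted p = 1.1e-06) in ctrl and -2.89 (SE 0.14, adjusted p = 2.2e-17) in KO, by the quasi-likelihood test of edgeR, with p adjusted over all transcripts tested by the method of Benjamini and Hochberg. Only 0.416% of the 10822 transcripts tested in KO had a log2 fold change as low.

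Emc10, another lumenal subunit, had 148 and 149 CPM of footprints in ctrl DMSO and 63.0, 72.2 and 74.4 CPM in ctrl Torin1. In KO cells it had 116, 123 and 129.6 CPM with DMSO and 38.9, 40.1 and 42.1 CPM with Torin1. The Torin1 libraries lay below the DMSO libraries in both genotypes and the lowest of all were the KO Torin1 libraries. Unlike those of Emc1, the KO libraries of Emc10 lay below the ctrl libraries in DMSO also (log2 fold change -0.27, SE 0.16, adjusted p = 0.69). The log2 fold change with Torin1 was -1.08 (SE 0.16, adjusted p = 7.2e-05) in ctrl and -1.62 (SE 0.14, adjusted p = 1.4e-11) in KO.

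Emc7, the third lumenal subunit, had 204 and 259 CPM of footprints in ctrl DMSO and 144, 145 and 163.5 CPM in ctrl Torin1. In KO cells it had 213, 220.4 and 239.8 CPM with DMSO and 121, 139.8 and 159 CPM with Torin1. The Torin1 libraries again lay below the DMSO libraries in both genotypes, but those of KO and ctrl overlapped. The log2 fold changes were -0.65 (SE 0.15, adjusted p = 0.0061) in ctrl and -0.69 (SE 0.12, adjusted p = 2.2e-05) in KO. In ctrl the call was lost without ctrl DMSO replicate 1, without ctrl Torin1 replicate 2 or without ctrl Torin1 replicate 3.

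The membrane core differed with Torin1 in KO cells by small amounts. Emc3, the insertase subunit, ranged from 121 to 130.3 CPM of footprints in KO DMSO and from 90.0 to 104 CPM in KO Torin1 (log2 fold change -0.36, SE 0.12, adjusted p = 0.019), and in ctrl its log2 fold change was 0.05 (SE 0.17, adjusted p = 0.88). Emc4 ranged from 181 to 239.8 and from 143.5 to 175 CPM in the same KO groups (-0.41, SE 0.12, adjusted p = 0.0076), and in ctrl from 232 to 259.8 CPM with DMSO and from 179 to 198 CPM with Torin1 (-0.38, SE 0.14, adjusted p = 0.078). In ctrl, then, the Emc4 groups did not overlap although the test was not passed. The KO call of Emc3 was lost without KO DMSO replicate 2, without KO Torin1 replicate 2 and without scaling beyond library size (-0.11), and that of Emc4 without KO Torin1 replicate 3 and without that scaling (-0.16).

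Mmgt1 and Emc6, the smallest coding sequences of the complex, were near the threshold. Mmgt1 had a log2 fold change of footprints of -0.37 (SE 0.14, adjusted p = 0.033) in KO and 0.14 (SE 0.22, adjusted p = 0.73) in ctrl. Emc6, with 18 to 82 footprints per library in KO, had -0.62 (SE 0.25, adjusted p = 0.044) in KO and -0.22 (SE 0.37, adjusted p = 0.73) in ctrl. The KO call of Mmgt1 was lost in 8 and that of Emc6 in 10 of 11 alternatives, including the replicate block for Emc6 (-0.61, adjusted p = 0.053).

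Among the cytosolic subunits, Emc2 had the smallest log2 fold changes with Torin1. Its footprints ranged from 159 to 190.5 CPM in ctrl DMSO, from 168 to 180.2 CPM in ctrl Torin1, from 195 to 213.5 CPM in KO DMSO and from 187 to 224 CPM in KO Torin1, and the Torin1 tests gave an adjusted p of 0.96 in ctrl and 0.80 in KO. The KO libraries lay above the ctrl libraries at both treatments (log2 fold change 0.20, SE 0.16, adjusted p = 0.77 in DMSO and 0.19, SE 0.11, adjusted p = 0.35 in Torin1). Emc8 ranged from 96.2 to 106 CPM in KO DMSO and from 60.4 to 69.2 CPM in KO Torin1 (log2 fold change -0.66, SE 0.13, adjusted p = 1.3e-04), and in ctrl it had -0.50 (SE 0.17, adjusted p = 0.059), which was called with all 4 conditions in the fit (-0.50, adjusted p = 0.022). Emc9, its paralogue, had 7 to 52 footprints per library over all 11, with log2 fold changes of -0.59 (SE 0.38, adjusted p = 0.32) in ctrl and -0.36 (SE 0.31, adjusted p = 0.38) in KO, with SEs larger than those of Emc8. Of the 621 coding bases of Emc8, 222 (35.7%) are also coding in Gm27021 on the same strand, which had 10 to 77 footprints per library against 53 to 494 for Emc8, and reads from that stretch cannot be told apart.

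By count, 3 of 10 subunits had lower footprints with Torin1 in ctrl (Emc1, Emc7 and Emc10), where 9.93% of the 10693 transcripts tested were called lower. In KO the count was 8 of 10, all but Emc2 and Emc9, where 22.1% of 10822 were called lower. The median log2 fold change of the 10 was -0.44 in ctrl and -0.52 in KO, beside 0.02 over all transcripts in each. No subunit was called higher in either comparison. The libraries did not overlap, with Torin1 lower, for 6 of 10 in ctrl and 8 of 10 in KO, beside 21.9% and 25.1% of 10563 transcripts. Without scaling beyond library size, which moved the median of all transcripts to 0.23 in ctrl and 0.26 in KO and the split of calls in KO from 2391 lower and 1999 higher to 1532 lower and 3766 higher, 4 of the 8 calls in KO were lost (Emc3, Emc4, Mmgt1 and Emc6) while Emc1, Emc7, Emc8 and Emc10 were called. The count in KO was 5 without KO DMSO replicate 2 and without KO Torin1 replicate 2, and in ctrl it was 5 without ctrl DMSO replicate 3, with Emc4 and Emc8 added.

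**Figure D2:**
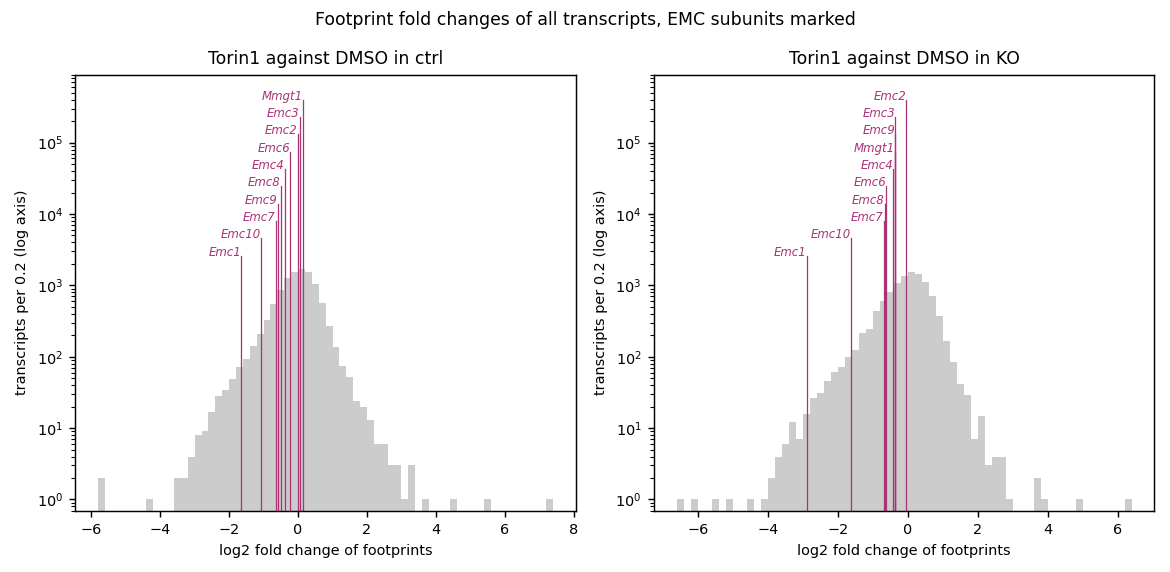
Number of transcripts (vertical log axis, bins of 0.2) by log2 fold change of footprints with Torin1 in ctrl and in KO, with the 10 EMC subunits as vertical lines at staggered heights that carry no value. Emc1 (-1.65 and -2.89) and Emc10 (-1.08 and -1.62) lie in the lower tail of both distributions, and Emc2 lies near 0.

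The mRNA of the subunits moved little by comparison. With Torin1, 0 of 10 were called by edgeR in ctrl (2.73% of 10958 transcripts called in either direction) and 0 of 10 in KO (9.97% of 11004). At an unadjusted p under 0.05 the counts were 3 and 4, and DESeq2 called 0 in each. Here and below, counts at an unadjusted p without a count over all transcripts beside them are descriptions only. Emc1 mRNA lay between 87.5 and 132 CPM in all 12 libraries, with log2 fold changes of -0.00 (SE 0.14) in ctrl and -0.12 (SE 0.08) in KO. Over the 10 subunits the mRNA log2 fold changes ranged from -0.43 to 0.13 in ctrl and from -0.39 to 0.11 in KO, with Emc9 the lowest in both. With the replicate number as a block, 2 of 10 were called lower in KO, Emc9 (-0.40, adjusted p = 0.0497) and Emc10 (-0.26, adjusted p = 0.039). The block raised the calls over all transcripts in other mRNA comparisons (counts at the end). The share of all transcripts for this comparison is not given, so the 2 calls are descriptions. With all 4 conditions in the fit Emc4 was called lower in ctrl (-0.34, adjusted p = 0.022).

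**Figure D3:**
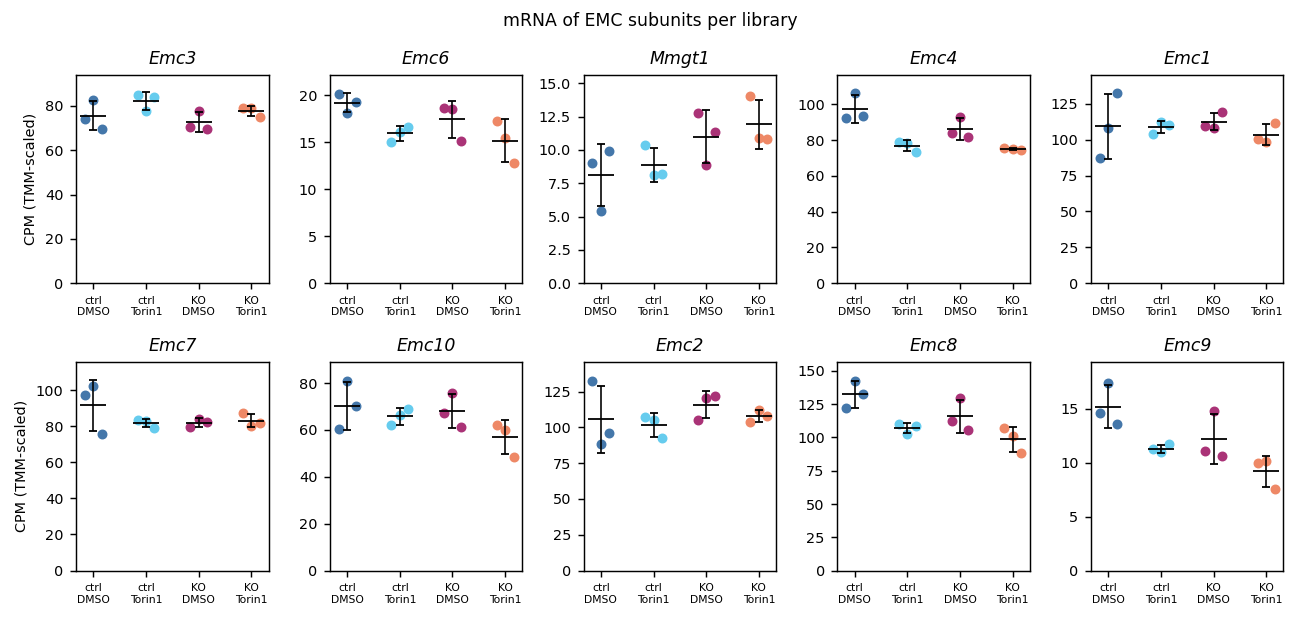
mRNA level of each EMC subunit in TMM-scaled CPM (vertical axis, from 0) in each of the 12 RNA-seq libraries (points), with mean and SD (bars, n = 3). The Emc1 libraries overlap between all 4 conditions, and Mmgt1, Emc6 and Emc9 have the lowest levels.

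Translational efficiency (TE), or footprints per mRNA, was tested as the interaction of assay and condition in a single model of both kinds of library. As the log2 of the ratio of the CPM of the same replicate, the TE of Emc1 was 1.48 ± 0.20 (SD, n = 2) in ctrl DMSO, -0.23 ± 0.27 (n = 3) in ctrl Torin1, 1.28 ± 0.11 (n = 3) in KO DMSO and -1.47 ± 0.24 (n = 3) in KO Torin1. In all 6 Torin1 libraries it lay below all 5 DMSO libraries. The fitted log2 fold change of TE with Torin1 was -1.65 (SE 0.24, adjusted p = 8.9e-05) in ctrl and -2.77 (SE 0.16, adjusted p = 1.2e-12) in KO.

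For Emc10 the log2 TE was 1.19 ± 0.16 (n = 2) in ctrl DMSO, 0.08 ± 0.05 (n = 3) in ctrl Torin1, 0.86 ± 0.23 (n = 3) in KO DMSO and -0.49 ± 0.16 (n = 3) in KO Torin1. Its fitted log2 fold change with Torin1 was -0.98 (SE 0.21, adjusted p = 0.0051) in ctrl, a call lost without ctrl DMSO replicate 1, and -1.37 (SE 0.17, adjusted p = 9.3e-07) in KO. Emc7 had -0.49 (SE 0.20, adjusted p = 0.22) in ctrl and -0.71 (SE 0.14, adjusted p = 3.2e-04) in KO. The other subunits with a lower TE in KO were Emc3 (-0.45, SE 0.14, adjusted p = 0.014) and Emc8 (-0.43, SE 0.16, adjusted p = 0.0396). Both calls were lost without scaling beyond library size, without KO DMSO replicate 3 and without KO Torin1 replicate 2, and that of Emc8 also without KO DMSO replicate 1, without KO Torin1 replicate 1 and with all 4 conditions in the fit.

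The counts of subunits with lower TE were 2 of 10 in ctrl, where 4.29% of 10432 transcripts were called lower, and 5 of 10 in KO, where 17.8% of 10535 were. Emc4, whose footprints were lower in KO, had a log2 TE change of -0.21 (SE 0.15, adjusted p = 0.31) there, beside an mRNA change of -0.20 (SE 0.08, adjusted p = 0.12). Mmgt1 had -0.48 (SE 0.20, adjusted p = 0.076) in KO and was called with the replicate block (-0.49, adjusted p = 0.033). Emc2 had 0.04 (SE 0.22) in ctrl and 0.06 (SE 0.13) in KO.

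**Figure D4:**
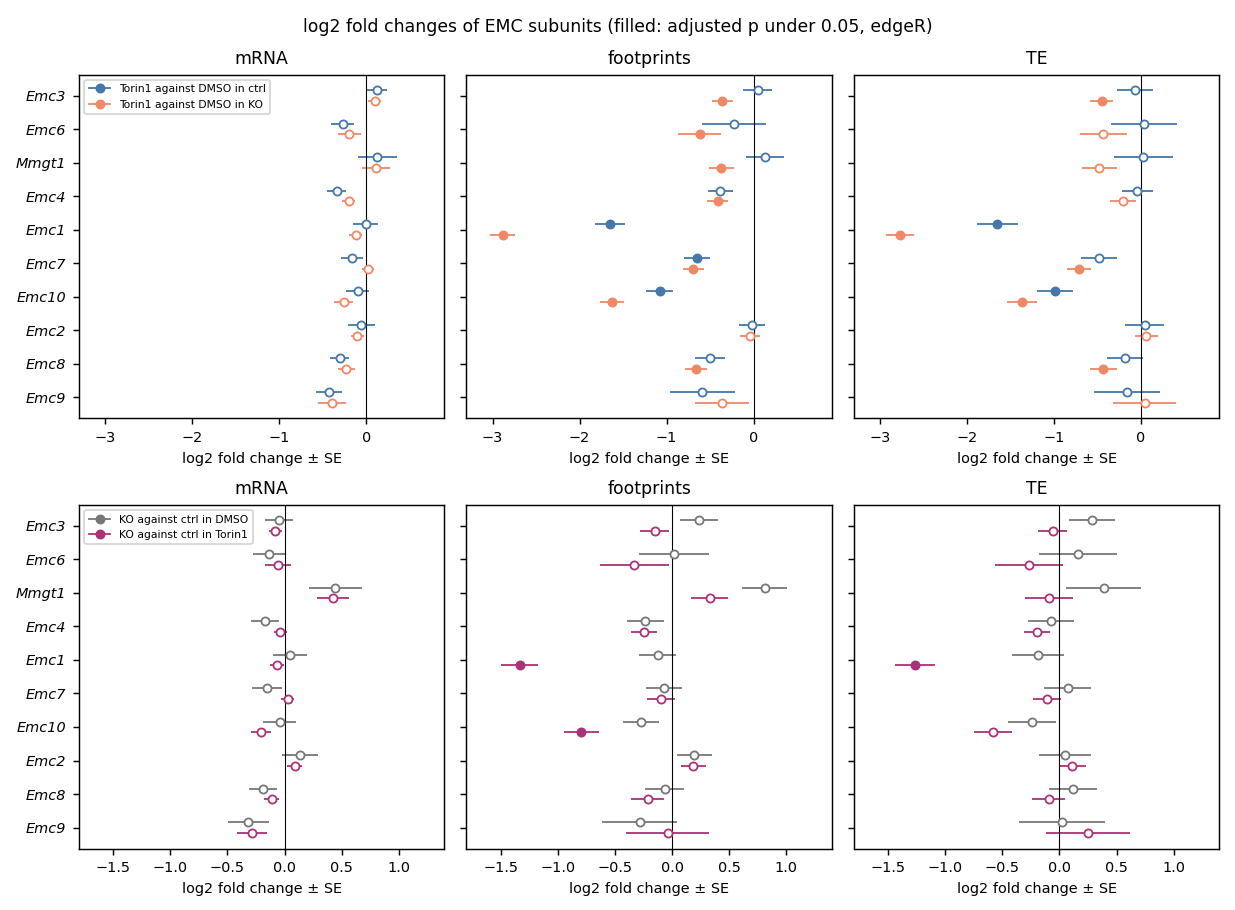
log2 fold change with SE (horizontal axis) of each EMC subunit for mRNA, footprints and TE, with Torin1 against DMSO in ctrl and KO (upper row) and KO against ctrl in DMSO and Torin1 (lower row). Filled points had an adjusted p under 0.05 by edgeR over all transcripts, and in the lower row these are Emc1 (footprints -1.34, TE -1.26) and Emc10 (footprints -0.80), both in Torin1.

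KO was then compared with ctrl at each treatment, for the mRNA and footprints of the subunits with and without mTOR inhibition. Each genotype was a single selected population, so Eif4e3 loss cannot be told apart from other differences between the populations. In DMSO, 0 of 10 subunits were called by edgeR in mRNA (0.0183% of 10924 transcripts called), in footprints (0.0279% of 10757) and in TE (0% of 10475), and DESeq2 called 0 in each. With the replicate number as a block, many more transcripts were called in mRNA (counts at the end), but 0 of 10 subunits. At an unadjusted p under 0.05 the counts of subunits were 0, 1 and 0. That 1 was Mmgt1, with 27.6 and 46.3 CPM of footprints in ctrl DMSO and 71.1, 73.1 and 73.3 CPM in KO DMSO, where the genotypes did not overlap (log2 fold change 0.81, SE 0.20, adjusted p = 0.42). The lower of these ctrl libraries was the shallow replicate 3, with 17 footprints of Mmgt1. The genotypes did not overlap in DMSO for 4 of 10 subunits, Emc2, Emc3 and Mmgt1 being higher and Emc10 lower in KO, where 26.1% of 10563 transcripts did not overlap in either direction.

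In Torin1, Emc1 and Emc10 had lower footprints in KO than in ctrl. The Torin1 libraries of this comparison are also those of the Torin1 responses above, so it is not independent of them. The log2 fold change was -1.34 (SE 0.16, adjusted p = 3.3e-07) for Emc1, a 2.52-fold difference, and -0.80 (SE 0.15, adjusted p = 7.7e-04) for Emc10, a 1.74-fold difference. These were 2 of 10 subunits, where 4.01% of 10792 transcripts were called lower. Emc7, the other lumenal subunit, had -0.10 (SE 0.12, adjusted p = 0.71), and the remaining 7 ranged from -0.33 for Emc6 to 0.33 for Mmgt1. Both calls held in every alternative run. The libraries of the genotypes did not overlap for 5 of 10 subunits, Emc1, Emc4, Emc8 and Emc10 being lower and Emc2 higher in KO, where 24.5% of 10563 transcripts did not overlap in either direction.

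In TE the same comparison called Emc1 (-1.26, SE 0.17, adjusted p = 7.6e-05), 1 of 10 where 2.26% of 10509 transcripts were called lower. Emc10 had -0.58 (SE 0.17, adjusted p = 0.053), and it was called by DESeq2, without the filter, without scaling beyond library size and without KO Torin1 replicate 3. In mRNA 0 of 10 were called by edgeR (1.96% of 11007 transcripts called) and 0 by DESeq2, with 3 at an unadjusted p under 0.05. Mmgt1 mRNA was 8.09 to 10.3 CPM in ctrl Torin1 and 10.8 to 14.1 CPM in KO Torin1 (0.43, SE 0.14, adjusted p = 0.13) and was called higher with the replicate block (0.43, adjusted p = 0.019).

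Whether the Torin1 response itself differed between the genotypes was tested as the interaction over all 4 conditions. For footprints it was called for Emc1, whose log2 response was lower in KO than in ctrl by a fitted difference of -1.22 (SE 0.23, adjusted p = 0.013), 1 of 10 subunits where 0.114% of 10563 transcripts were called lower. The call was lost without ctrl Torin1 replicate 3 (-1.05, adjusted p = 0.10), without KO Torin1 replicate 1 (-1.07, adjusted p = 0.11) and without KO Torin1 replicate 2 (-1.29, adjusted p = 0.051), and held with the replicate block (-1.16, adjusted p = 0.0011). Emc10 had -0.52 (SE 0.20, adjusted p = 0.54), Mmgt1 -0.47 (SE 0.25), Emc3 -0.38 (SE 0.20) and Emc6 -0.36 (SE 0.43), and the remaining 5 ranged from -0.14 for Emc8 to 0.24 for Emc9. The median of the 10 was -0.25, beside -0.02 over all transcripts. A difference in response passed the test for Emc1 alone, which does not show that the others responded alike.

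The interaction of TE was -1.10 (SE 0.30, adjusted p = 0.37) for Emc1, and 0 of 10 subunits and 0% of 10376 transcripts were called by edgeR, with 591 transcripts, Emc1 the 1 subunit among them, at an unadjusted p under 0.05. DESeq2 called 16 transcripts and 0 subunits. The mRNA interaction called 0 of 10 and 0% of 11072 transcripts by edgeR and by DESeq2, with 0 subunits and 108 transcripts at an unadjusted p under 0.05 by edgeR. These fits left out the replicate number. With it as a block, 0 subunits were called in mRNA.

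Divided by the length of the coding sequence, the footprint levels can be set beside each other across subunits. Emc4 was the densest of the 9 subunits with a coding length in each condition, from 291 ± 28.9 CPM per kb (SD, n = 3) in KO Torin1 to 448 ± 35.9 (n = 2) in ctrl DMSO. Its library range overlapped that of the next subunit in KO DMSO only, where the next was Emc7. Emc9 was the least dense in 3 conditions, at 13.0 ± 5.33 to 20.6 ± 0.59 CPM per kb. Emc1 stood 6th of 9 in ctrl DMSO, at 101.5 ± 15.7 CPM per kb with a range overlapping Mmgt1, the next below, and 7th in KO DMSO at 91.8 ± 10.4 (n = 3).

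In Torin1 Emc1 stood 8th of 9 in ctrl, at 31.6 ± 6.66 CPM per kb with a range overlapping that of Emc6 above it, and 9th in KO, at 12.7 ± 2.14 with a range overlapping that of Emc9, the paralogue of Emc8. Set against the median density of the other 8 subunits in the same library, Emc1 stood at 0.535 and 0.892 in ctrl DMSO, 0.459 to 0.571 in KO DMSO, 0.193 to 0.291 in ctrl Torin1 and 0.0788 to 0.104 in KO Torin1. The Torin1 libraries lay below the DMSO libraries in both genotypes, and the KO Torin1 libraries below those of ctrl Torin1. These ratios concern ribosomes on the coding sequence and not the amount of protein, which was not measured.

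**Figure D5:**
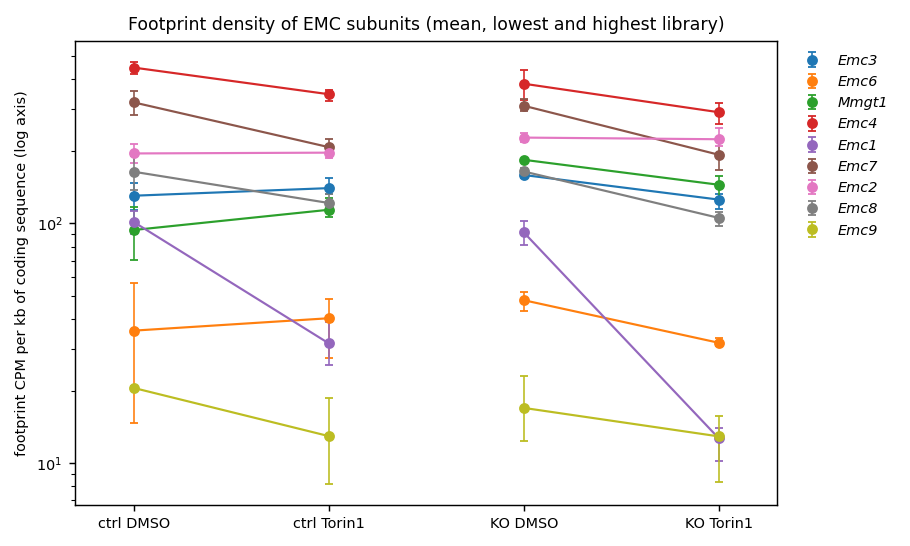
Footprint density (CPM per kb of coding sequence, log axis) of 9 EMC subunits in the 4 conditions, as the mean with the lowest and highest library (bars; n = 2 for ctrl DMSO, otherwise 3), the lines joining DMSO and Torin1 of the same genotype. Emc1 goes from 101.5 to 31.6 in ctrl and from 91.8 to 12.7 in KO, where it meets Emc9, while the other lines are flatter.

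Other routes into the ER membrane were read for comparison, from lists of the Sec61 channel with its multipass translocon (13 genes, all tested) and of the GET pathway for tail-anchored proteins (7 genes, all tested). Of the Sec61 list, 5 had lower and 1 had higher footprints with Torin1 in ctrl, where 9.93% and 5.69% of all transcripts were called lower and higher. In KO 8 were lower and 1 was higher, where these shares were 22.1% and 18.5%. Ncln, which encodes nicalin, and Nomo1, its partner, were the lowest in adjusted p, with log2 fold changes of -2.26 (SE 0.17) and -1.61 (SE 0.14) in ctrl and -3.06 (SE 0.16) and -2.75 (SE 0.13) in KO. Both, like Emc1, have lumenal domains, and whether this bears on their values was not tested. Sec61a1, Sec61g and Tmem147 of the list were also called lower in both genotypes. The median of the list was -0.07 in ctrl and -0.39 in KO.

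In Torin1, Nomo1 (-1.03, SE 0.14, adjusted p = 2.7e-06) and Ncln (-0.85, SE 0.20, adjusted p = 0.0062) had lower footprints in KO than in ctrl, 2 of 13 called where 4.01% of all transcripts were called lower. The interaction was called for Nomo1 (-1.12, SE 0.20, adjusted p = 0.0057), which with Emc1 made 2 of the 12 transcripts called there. In TE, 3 of 13 were lower with Torin1 in ctrl (Sec61a1, Ncln and Nomo1), beside 4.29% of all transcripts. In KO 5 were lower and 1 was higher, beside 17.8% and 10.6% of all, and under Torin1 Ncln and Nomo1 were lower in KO than in ctrl, beside 2.26% of all.

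In the GET list the footprint response to Torin1 had a median log2 fold change of -0.34 in ctrl cells and -0.55 in KO cells. In ctrl 0 of 7 were called by edgeR and 0 by DESeq2, with 2 at an unadjusted p under 0.05, and in KO 6 of 7 were called lower, beside 9.93% and 22.1% of all transcripts. In TE 0 of 7 were called in ctrl by edgeR and by DESeq2, with 0 at an unadjusted p under 0.05, and 5 of 7 were lower in KO, beside 4.29% and 17.8% of all. Get4, part of the complex that hands tail-anchored proteins on, and Asna1, the targeting ATPase, had -0.84 (SE 0.12) and -0.82 (SE 0.13) in KO, beside -0.38 (SE 0.15, adjusted p = 0.11) and -0.44 (SE 0.17, adjusted p = 0.079) in ctrl. In Torin1 both were lower in KO than in ctrl (-0.52, SE 0.12, adjusted p = 0.0041, and -0.49, SE 0.13, adjusted p = 0.014). These were 2 of 7 called, where 4.01% of all transcripts were called lower. The genotype by treatment interaction was called for 0 of 7 in footprints and in TE, by edgeR and by DESeq2. At an unadjusted p under 0.05 it had 1 of 7 in each measure. No difference in response between KO and ctrl was thus called for this list. The mRNA log2 fold changes of Ncln, Nomo1, Get4 and Asna1 with Torin1 ranged from -0.29 to -0.13 in ctrl and from -0.19 to -0.11 in KO, with a smallest adjusted p of 0.099.

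Fdft1 (squalene synthase) and Soat1 (a sterol acyltransferase) are sterol enzymes known to need the EMC for insertion. Fdft1 had 140.1 to 243 CPM of footprints over all 11 libraries, with log2 fold changes with Torin1 of -0.44 (SE 0.15, adjusted p = 0.051) in ctrl and -0.35 (SE 0.13, adjusted p = 0.027) in KO. Soat1 had 2 to 42 footprints per library, with -0.65 (SE 0.33, adjusted p = 0.12) in KO and a log2 TE change of -1.08 (SE 0.38, adjusted p = 0.036) there. Neither differed between KO and ctrl past the threshold in mRNA, footprints or TE, although Fdft1 mRNA was lower in all 6 KO libraries (200.5 to 219.9 CPM) than in all 6 ctrl libraries (223 to 265 CPM). Soat1 mRNA was higher in KO with no overlap at either treatment. Its DMSO footprints and their ratio to mRNA were higher and its Torin1 ratio was lower, also without overlap. In DMSO footprints 26.1% of 10563 transcripts did not overlap in either direction, and no such share was computed for mRNA or the ratio. Soat1 had only 29 to 91 mRNA counts per library, so these separations are descriptions. The lists were read with results of these libraries known.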

How the data were processed

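Reads of both assays were aligned by the authors to mm10 (HISAT2) and then to 1 canonical Ensembl transcript per gene (bowtie2). The authors deposited 8 tables of raw counts per coding sequence, 1 per assay and pair of conditions, with P-sites counted in Ribo-seq. Those tables and 2 TE tables also hold the authors' own comparisons, which were not used. Counts of a library agreed in every table (0 differences). For mRNA in DMSO, 4 columns had no usable replicate number, and each equalled a numbered column of its group elsewhere.

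Transcripts with over 1 CPM in all libraries of at least 1 condition were fitted with edgeR 4.0.16 (R 4.3.3) with TMM scaling, and p-values were adjusted over all transcripts at a threshold of 0.05. The SEs for edgeR were derived from the log2 fold change and the F statistic of its quasi-likelihood test. TE was scaled over transcripts tested in both assays. Levels came from the transcripts shared by all tables of an assay. Alternatives were DESeq2 1.42.0, no scaling beyond library size, no filter, all 4 conditions in the fit, the replicate number as a block and each replicate left out. The fit was tested on simulated data. The labels tie each replicate number to a passage, and deviations of same-numbered libraries of different conditions correlated across transcripts at -0.0424 to 0.737 in RNA-seq and -0.0386 to 0.144 in Ribo-seq (other pairs -0.589 to 0.431 and -0.144 to 0.123).

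The subunits, the lists and their named genes (all subunits, the 2 called members of each other list with the smallest adjusted p, Fdft1, Soat1 and Eif4e3) were chosen with earlier results of these data known. Depth ranged from 669010 to 5284909 footprints and from 17047795 to 28910907 RNA-seq counts per library, and p-values measure the spread between passages of 1 population per genotype. RNA-seq used a stranded kit.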

Additional observations from a re-analysis of the deposited data

Results flagged for a closer look

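The response of Emc1 footprints to Torin1 differed between the genotypes, with a log2 difference of -1.22 (SE 0.23, adjusted p = 0.013) by edgeR's interaction test. That difference came from the fit of all conditions, while separate pairwise fits gave responses of -2.89 in KO and -1.65 in ctrl. All 3 KO Torin1 libraries lay below all 3 ctrl Torin1 libraries. It is brought up because the interaction itself passed the test. That call was lost in 3 of 15 alternatives, without ctrl Torin1 replicate 3, KO Torin1 replicate 1 or KO Torin1 replicate 2. The interaction of TE was not called for Emc1 by edgeR (-1.10, SE 0.30, adjusted p = 0.37).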

How the results depend on the processing

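Of the 22 calls of a subunit in a comparison, 13 held in every alternative run, and over 243 refitted fold changes 204 stayed past the threshold, 39 did not and 0 changed sign. With the replicate block the mRNA counts rose from 0 to 2 with Torin1 in KO and from 0 to 1 for KO against ctrl in Torin1, and beyond these, Emc6 footprints and Mmgt1 TE it changed no call of a subunit. Over all transcripts the block raised the mRNA calls of KO against ctrl in DMSO from 2 to 866 and with Torin1 in ctrl from 299 to 1328. For the mRNA comparisons in which subunits were gained, that number is not given. With all 4 conditions in the fit, 1 subunit was called in mRNA with Torin1 in ctrl, Emc8 was added to the footprint calls in ctrl (4 in all) and Mmgt1 and Emc6 were lost from those in KO (6 left). Without scaling beyond library size the counts with Torin1 in KO were 4 for footprints and 3 for TE. For TE in KO against ctrl in Torin1 the count was 2 with DESeq2, without the filter and without scaling. Leaving out 1 replicate gave 2 to 5 footprint calls with Torin1 in ctrl and 5 to 7 in KO, 0 to 1 for the footprint interaction, and for TE 1 to 2 with Torin1 in ctrl, 3 to 5 in KO and 1 to 2 for KO against ctrl in Torin1. The cause was not tested. A lone remaining ctrl DMSO library was assumed to vary like the others. Emc6 and Emc9 had at most 82 footprints in a library, and whether more depth would change their calls was not tested.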
